A study of Mus musculus with 11 samples.

Results

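The 39 protein-coding Hox genes of the mouse were followed through RNA-seq libraries of sorted and cultured mammary epithelial cells. They were chosen by name, as every gene of the count table whose symbol was *Hoxa*, *Hoxb*, *Hoxc* or *Hoxd* followed only by a number, and made up 39 of the 27179 genes in the table. Freshly sorted populations of the mammary gland were profiled beside mammospheres and a cell line, in connection with an shRNA screen for regulators of mammary stem and progenitor cells in which *Hoxa5* and *Hoxd8* were among the candidates. The sorted cells came from wild type virgin female FVB/N mice, given as 8 weeks old in the labels, and comprised CD29hiCD24+ basal cells enriched for mammary stem cells (MaSC/basal), CD29loCD24+CD61+ cells enriched for luminal progenitors (LP) and CD29loCD24+CD61- cells enriched for mature luminal cells (ML), with 3 libraries each. One further library came from MaSC/basal cells grown for 1 week in suspension (Mammosphere), and 1 from Comma Dβ (CommaD-βGeo), a line of Balb/c mid-pregnancy mammary origin that was kept in culture. The title of MaSC/basal 1 names p53, while its genotype label reads wild type, and the genotype label was followed. The sorts enrich for a population and do not purify it, and the culture libraries have no replicate, while Comma Dβ also differs from the sorted cells in strain and stage.

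Hox proteins are homeodomain transcription factors that give cells along the body axis their regional identity. In mammals their genes sit in 4 clusters, and their order along the chromosome follows the order in which they are used from head to tail, so that low-numbered genes are anterior and high-numbered genes posterior. Cells of adult tissues keep part of the Hox pattern of their place of origin, and members of the family have known roles in the mammary gland, among them *Hoxc8* in placing the mammary buds and *Hoxa9*, *Hoxb9* and *Hoxd9*, which act together in the growth of the gland in pregnancy. In mm10 (GRCm38) coordinates the HoxA cluster spans chr6:52155367-52260880 with 11 genes, HoxB chr11:96194316-96368254 with 10, HoxC chr15:102921131-103036856 with 9 and HoxD chr2:74668225-74765142 with 9.

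The sequence just upstream of 4 of these genes is shown because their levels carry the comparisons that follow. *Hoxb4* was past the test between luminal populations and was higher in both cultures, *Hoxb8* was among the genes with the steepest difference in Comma Dβ, and *Hoxa5* and *Hoxd8* are the screen's candidates. Each run is the 250 bases before an annotated transcript start in RefSeq (GRCm38.p6), read 5′ to 3′ on the gene's own strand, and capitals mark a match to the Pbx-Hox motif TGATNNAT. The *Hoxb8* run precedes the start of 1 transcript and lies inside the span of the gene over all its transcripts, and the other 3 end just before the first base of their gene.
Hoxb4, chr11:96318017-96318266, plus strand: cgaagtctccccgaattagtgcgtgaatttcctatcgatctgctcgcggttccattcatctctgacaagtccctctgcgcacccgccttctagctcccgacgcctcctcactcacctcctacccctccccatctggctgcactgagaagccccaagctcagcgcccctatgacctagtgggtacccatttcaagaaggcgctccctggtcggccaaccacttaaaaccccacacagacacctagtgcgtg
Hoxb8, chr11:96281655-96281904, plus strand: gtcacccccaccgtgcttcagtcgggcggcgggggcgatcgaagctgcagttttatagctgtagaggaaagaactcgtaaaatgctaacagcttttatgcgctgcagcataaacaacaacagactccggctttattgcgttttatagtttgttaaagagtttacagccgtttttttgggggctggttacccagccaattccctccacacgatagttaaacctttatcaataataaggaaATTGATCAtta
Hoxa5, chr6:52204588-52204837, minus strand: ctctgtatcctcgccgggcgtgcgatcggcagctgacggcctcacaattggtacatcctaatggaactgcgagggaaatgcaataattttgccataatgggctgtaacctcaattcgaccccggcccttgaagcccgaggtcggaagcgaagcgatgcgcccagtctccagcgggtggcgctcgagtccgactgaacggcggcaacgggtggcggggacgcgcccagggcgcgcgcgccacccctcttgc
Hoxd8, chr2:74704365-74704614, plus strand: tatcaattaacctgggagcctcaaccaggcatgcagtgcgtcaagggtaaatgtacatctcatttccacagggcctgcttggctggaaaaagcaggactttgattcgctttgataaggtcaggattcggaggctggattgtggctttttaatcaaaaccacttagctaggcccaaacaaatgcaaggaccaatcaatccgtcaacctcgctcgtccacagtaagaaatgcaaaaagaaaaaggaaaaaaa
The RefSeq table held 24 such windows for 22 of the 39 genes. Their median ratio of observed to expected CpG was 0.721 against 0.373 over all 32851 windows, and was 1.11 in the *Hoxa5* window and 0.487 in the *Hoxd8* window. TGATNNAT, searched on both strands, was found in 4 of the 24 Hox windows (16.7%) and in 7.68% of all windows, and of the 4 windows printed only that of *Hoxb8* held it. TGACAG, the core of the Meis motif, which can overlap the Pbx-Hox motif in part, was found on either strand in 2 of the 24 (8.33%) and in 15.9% of all windows.

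The libraries held between 19958838 and 75795034 reads assigned to genes, so that 1 read was worth between 0.0133 and 0.0534 CPM (read counts scaled to the library total and its TMM factor). MaSC/basal and luminal libraries were told apart by their markers. The summed level of 5 basal markers was 13711 to 17584 CPM in MaSC/basal and 582 to 866 CPM in luminal libraries. That of 4 luminal markers was 1317 to 1605 CPM and 10027 to 12044 CPM. LP and ML were apart too, with a spread among libraries. The 3 LP markers summed to 1377, 1091 and 1216 CPM in LP 1, 2 and 3 and to 259, 469 and 214 CPM in ML. The 4 ML markers summed to 641, 1049 and 1561 CPM in LP and to 5229, 3540 and 5944 CPM in ML. The third ML library (ML 3) stood apart in genes of skin and hair. *Krt1* and *Krt10*, keratins of the epidermis, were at 52.4 and 92.3 CPM there and at no more than 1.72 and 6.26 CPM in the other sorted libraries, so results that rest on ML 3 are also given without it. All libraries were made in 3 batches, which held LP and ML libraries 1, 2 and 3 in that order, MaSC/basal 1 and the Mammosphere in batch 1, MaSC/basal 2 and 3 in batch 2 and Comma Dβ in batch 3.

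Few Hox genes were expressed in freshly sorted mammary epithelium, and those that were lay almost entirely in the HoxB cluster. With a mean above 0.5 CPM taken as expressed, 4 of 39 Hox genes (10.3%) were expressed in MaSC/basal cells, 3 (7.69%) in LP cells and 4 (10.3%) in ML cells, where 53.5%, 52.5% and 52.5% of all genes were. *Hoxb2*, *Hoxb3* and *Hoxb4* were expressed in all 3 populations, *Hoxb9* was the fourth in MaSC/basal and *Hoxc13* the fourth in ML. No HoxA or HoxD gene reached the cutoff on average in a sorted population. Of the 39 genes, 31 were at or under 0.5 CPM in each of the 9 sorted libraries, and the exceptions were *Hoxb2*, *Hoxb3*, *Hoxb4*, *Hoxb6*, *Hoxb9*, *Hoxc8*, *Hoxc13* and *Hoxd8*. There were 6 genes without a read in these libraries, namely *Hoxa11*, *Hoxa13*, *Hoxb13*, *Hoxc11*, *Hoxd11* and *Hoxd12*, and *Hoxa13*, *Hoxd11* and *Hoxd12* had none in the cultures either.

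**Figure D1:**
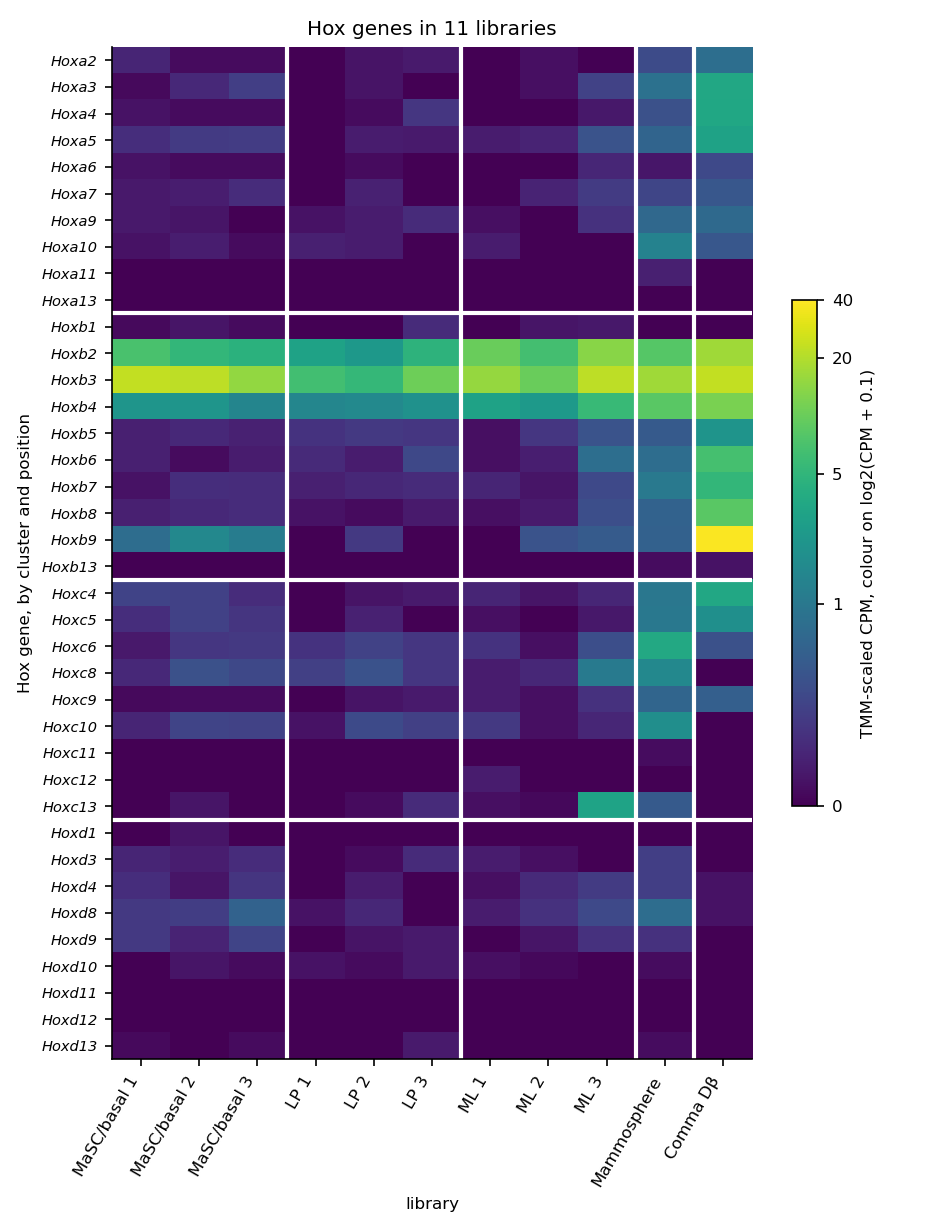
TMM-scaled CPM of the Hox genes reported here (rows, by cluster and position from anterior to posterior) in the 11 libraries (columns), with colour on the scale of log2(CPM + 0.1). Hoxb2, Hoxb3 and Hoxb4 form the band present in every library. The Mammosphere and Comma Dβ columns are lit over much of HoxA and HoxB and part of HoxC. HoxD is mostly dark, with its highest value, 0.742 CPM, in Hoxd8 in the Mammosphere.

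Expressed per length of transcript (RPKM, from the scaled CPM and the deposited gene length), *Hoxb3* led in MaSC/basal with a mean of 5.39 RPKM, followed by *Hoxb2* at 3.41, *Hoxb4* at 0.745 and *Hoxb9* at 0.423 RPKM. In LP the means of *Hoxb2* and *Hoxb3* were 2.07 and 2.00 RPKM, and *Hoxb4* followed at 0.656 RPKM. The order turned in ML, where *Hoxb2* had 6.24 RPKM, *Hoxb3* 4.27 and *Hoxb4* 1.44. Summed over the family, the Hox level was 12.7, 11.8 and 9.36 RPKM in MaSC/basal, 4.70, 4.56 and 7.68 RPKM in LP and 12.2, 8.46 and 20.9 RPKM in ML, so that each LP library was below every MaSC/basal and ML library. *Hoxb2*, *Hoxb3* and *Hoxb4* alone held between 76.0% and 94.9% of that sum in the 9 sorted libraries. HoxB as a cluster held 82.0% to 95.8%, HoxC 1.31% to 11.3%, HoxD 0.703% to 6.73% and HoxA 0.495% to 4.09%. By position, genes 1 to 3 held 63.3% to 85.4% of the summed RPKM, genes 4 to 8 held 12.2% to 29.9% and genes 9 to 13 held 1.62% to 8.11%.

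**Figure D2:**
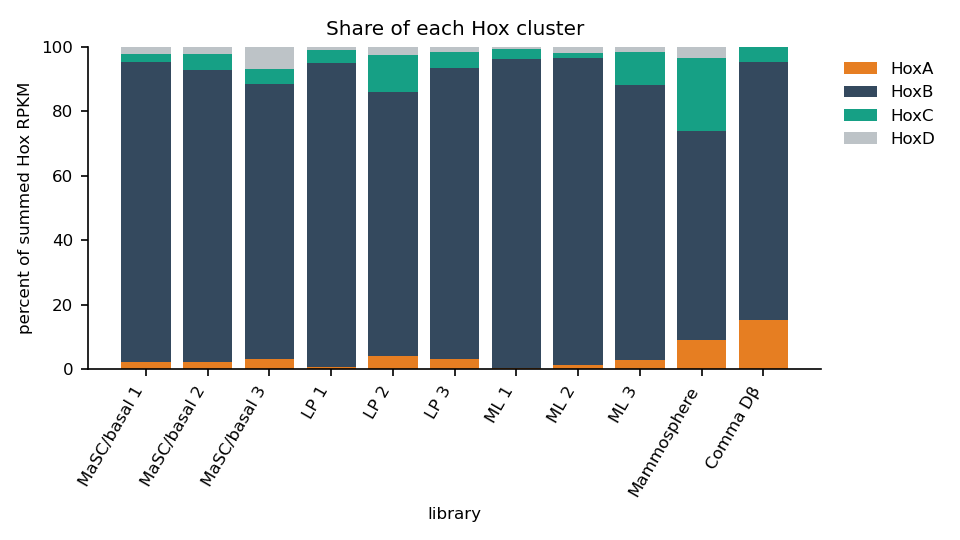
Share of the summed Hox RPKM held by each cluster (percent, stacked bars) in each of the 11 libraries. HoxB takes 82.0% to 95.8% in the 9 sorted libraries, 64.8% in the Mammosphere, where HoxC takes 22.9%, and 79.9% in Comma Dβ, where HoxA takes 15.3%.

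Only 5 of the 39 genes passed the filter for testing (over 0.5 CPM in at least 3 of the 11 libraries), namely *Hoxb2*, *Hoxb3*, *Hoxb4*, *Hoxb6* and *Hoxb9*, and all values of difference that follow are from edgeR's quasi-likelihood test with Benjamini-Hochberg adjustment over 15422 genes, called at an adjusted p under 0.05. In the comparison of LP with ML cells, which asks how the luminal populations differ, 3 of the 5 were called and all were higher in ML, where 31.8% of all genes tested were called, 17.5% higher in ML and 14.3% higher in LP. In MaSC/basal against LP 2 of 5 were called, both higher in MaSC/basal, beside 57.4% of all genes, made up of 29.4% higher in MaSC/basal and 28% higher in LP. In MaSC/basal against ML 3 of 5 were called, 1 higher in MaSC/basal, beside 28.9% of all genes, and 2 higher in ML, beside 29.7%, or 58.7% in either direction. Against the mean of both luminal populations 2 of 5 were called, both higher in MaSC/basal, beside 61.7% of all genes and 31.2% in that direction and 30.5% in the other. With 5 genes tested, the counts in the comparisons of MaSC/basal were near or below the share over all genes, and that in LP against ML was above it. Without ML 3, 1 of the 3 calls between LP and ML was kept, that of *Hoxb2*, and without LP 1 or LP 2 the count was also 1. A fit that matched libraries by batch, as a replicate block, kept all 3 calls between LP and ML. In MaSC/basal against ML no Hox gene was called without MaSC/basal 2 or MaSC/basal 3 and 1 was called without ML 1 or ML 3, and against the luminal mean 1 was called without MaSC/basal 1 or MaSC/basal 2. In bulk libraries such as these, fewer cells that express a gene and less RNA of it per cell cannot be told apart.

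*Hoxb2*, an anterior gene that patterns the hindbrain, was at 7.04, 5.18 and 4.46 CPM in MaSC/basal, 3.07, 2.32 and 4.75 in LP, 10.2, 6.62 and 13.8 in ML, 8.09 in Mammosphere and 16.8 in Comma Dβ. ML lay above LP without overlap, 3 of 3 ML libraries were above 2 of 3 MaSC/basal libraries and the lowest ML library was below the highest MaSC/basal library. The difference of LP from ML was -1.61 on the log2 scale (SE 0.34, edgeR adjusted p = 0.00709), and it stayed past the threshold in 17 of 17 alternative analyses. Within each batch the ML library had 3.32, 2.85 and 2.89 times the CPM of its LP library. MaSC/basal differed from ML by -0.86 on the log2 scale (SE 0.33, edgeR adjusted p = 0.0452), a call that was lost without MaSC/basal 2 (adjusted p = 0.124), MaSC/basal 3 (0.138), LP 1 (0.0587), ML 1 (0.0876) or ML 3 (0.166), as well as with limma voom (0.0645) and without TMM scaling (0.0531). Against LP the difference was 0.74 (SE 0.34) and was not called (edgeR adjusted p = 0.0862), but with library batch as a replicate block it was 1.11 (adjusted p = 0.00086), and without LP 3 it was 1.05 (adjusted p = 0.0328). Against the luminal mean it was -0.06 (SE 0.29, edgeR adjusted p = 0.869).

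*Hoxb3*, the neighbour of *Hoxb2* and likewise a hindbrain gene, was at 23.2, 21.96 and 14.99 CPM in MaSC/basal, 6.49, 5.30 and 10.5 in LP, 15.6, 10.1 and 22 in ML, 17.1 in Mammosphere and 23.0 in Comma Dβ. Every MaSC/basal library was above every LP library, while MaSC/basal and ML overlapped and LP 3 was slightly above the lowest ML library. MaSC/basal exceeded LP by 1.45 on the log2 scale (SE 0.33, edgeR adjusted p = 0.00406), a call kept in 17 of 17 alternatives, and the MaSC/basal library had the higher value in each of the 3 pairs of MaSC/basal and LP libraries that shared a batch. LP differed from ML by -1.10 (SE 0.33, edgeR adjusted p = 0.0306), and the ML library had 2.40, 1.91 and 2.09 times the CPM of its LP library within batches. That call was lost without LP 1 (adjusted p = 0.0998), LP 2 (0.114), ML 1 (0.0667) or ML 3 (0.103). It was kept when libraries were matched through the replicate block (-1.09, adjusted p = 0.00319). The fits that left out a library did not use the block. MaSC/basal and ML differed by 0.34 (SE 0.32, edgeR adjusted p = 0.387), and by 0.74 with the replicate block (adjusted p = 0.01). Over the luminal mean MaSC/basal was higher by 0.90 (SE 0.27, edgeR adjusted p = 0.0163), which was lost without MaSC/basal 1 (0.0702) or MaSC/basal 2 (0.0579).

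*Hoxb4*, best known as a gene that expands blood stem cells, was at 2.15, 2.15 and 1.43 CPM in MaSC/basal, 1.48, 1.59 and 1.98 in LP, 3.03, 2.46 and 5.60 in ML, 8.61 in Mammosphere and 11.8 in Comma Dβ. The 3 ML libraries were above all MaSC/basal and LP libraries, and MaSC/basal and LP overlapped. LP was lower than ML by a log2 difference of -1.13 (SE 0.34, edgeR adjusted p = 0.0301), and ML had 2.04, 1.55 and 2.84 times the CPM of LP within batches. The call was lost without LP 1 (adjusted p = 0.0956), LP 2 (0.0962) or ML 3 (0.0982) and with limma voom (0.0635). Matching through the replicate block kept it (-1.03, adjusted p = 0.0162). MaSC/basal differed from ML by -0.93 on the log2 scale (SE 0.33, edgeR adjusted p = 0.0328), a call lost with the replicate block (-0.59, adjusted p = 0.0878), with limma voom (0.06) and without MaSC/basal 1 (0.0575), MaSC/basal 2 (0.0572), MaSC/basal 3 (0.103) or ML 3 (0.144). Between MaSC/basal and LP the difference was 0.20 (SE 0.34, edgeR adjusted p = 0.645). For *Hoxb2*, *Hoxb3* and *Hoxb4* alike the third library was the highest of its population in both LP and ML. Both of these were made in batch 3. They also had the highest sums of ML markers in their populations, 1561 CPM in LP 3 and 5944 CPM in ML 3. ML 2, with the lowest such sum in ML (3540 CPM), was the lowest ML library for each of these genes. In LP the lowest sum was in LP 1, while *Hoxb2* and *Hoxb3* were lowest in LP 2. The part of the sorts in these values was not tested.

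**Figure D3:**
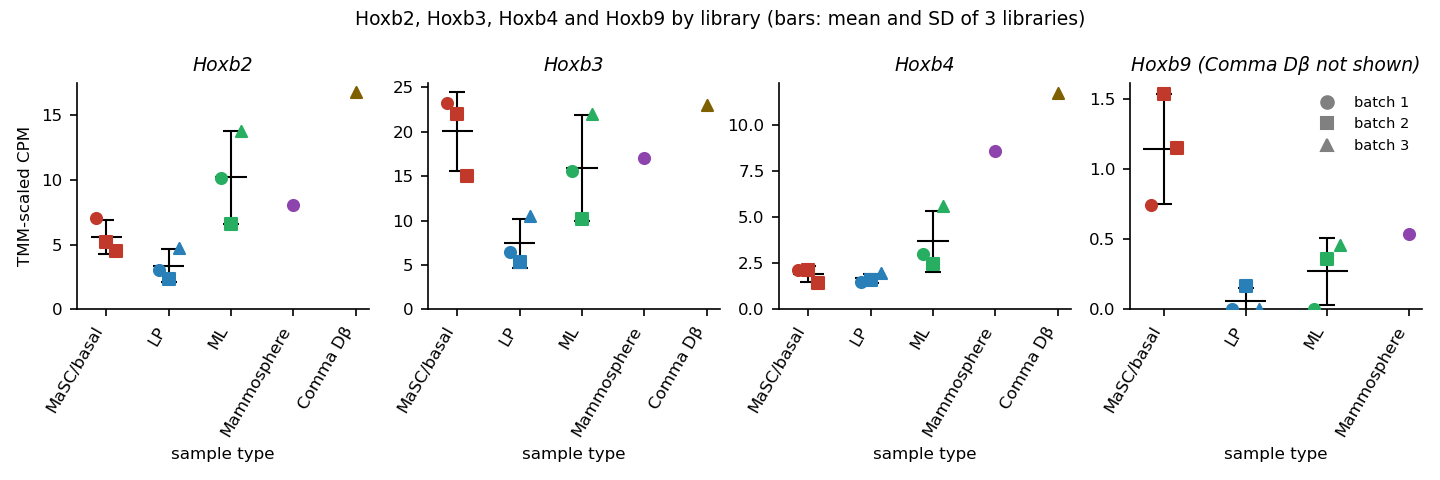
TMM-scaled CPM of Hoxb2, Hoxb3, Hoxb4 and Hoxb9 by sample type, 1 point per library with its shape giving the batch, and bars for the mean and SD of the 3 libraries of a sorted population (Comma Dβ, at 38.9 CPM, is not shown for Hoxb9). The ML mean lies above the LP mean for the 3 anterior genes, with an overlap in Hoxb3, while for Hoxb9 the MaSC/basal libraries, at 0.746 to 1.53 CPM, lie above all LP and ML libraries.

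*Hoxb9* was the posterior gene of the tested set, and was at 0.746, 1.53 and 1.15 CPM in MaSC/basal, 0, 0.168 and 0 in LP, 0, 0.359 and 0.455 in ML, 0.539 in Mammosphere and 38.9 in Comma Dβ. The MaSC/basal values came from 44, 77 and 61 reads, the LP values from 0, 9 and 0 and the ML values from 0, 27 and 10, and MaSC/basal did not overlap with either luminal population. The log2 difference of MaSC/basal was 3.74 from LP (SE 0.94, edgeR adjusted p = 0.00654) and 2.91 from the luminal mean (SE 0.68, edgeR adjusted p = 0.00377), both called in 17 of 17 alternatives. Among the sorted libraries only those of MaSC/basal were over 0.5 CPM, so the gene passed the filter through them and the cultures, and with no filter the 3 differences were 3.74 from LP (adjusted p = 0.00379), 2.90 from the luminal mean (0.00197) and 2.05 from ML (0.0326). Without LP 2, the only LP library with reads, LP was at 0 and the fitted differences of 8.57 from LP (edgeR adjusted p = 0.00731) and 5.33 from the luminal mean (0.00327) depend on the prior count. From ML it was 2.08 (SE 0.77, edgeR adjusted p = 0.0399), a call lost without MaSC/basal 2 (0.105), MaSC/basal 3 (0.0738), ML 1 (0.0625) or ML 2 (0.053), with DESeq2 (0.203) and when only the 9 sorted libraries were fitted (0.0542). Of the paralogs that act with it in the pregnant gland, *Hoxa9* had at most 0.137 CPM and *Hoxd9* at most 0.245 CPM in a sorted library. *Krt5*, a keratin of basal cells, was at 13.2, 14.6 and 141 CPM in ML 1, 2 and 3 beside 2853 to 3443 CPM in MaSC/basal.

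*Hoxb6*, a trunk gene of the middle of the cluster, was at 0.0678, 0.0199 and 0.0565 CPM in MaSC/basal, 0.106, 0.0561 and 0.267 in LP, 0.0283, 0.0664 and 0.774 in ML, 0.742 in Mammosphere and 6.73 in Comma Dβ. Its 2 highest sorted libraries were LP 3 and ML 3, and all others were at or under 0.106 CPM. It passed the filter with ML 3 and the cultures, and edgeR called it in none of the 4 comparisons. Its lowest edgeR adjusted p was 0.129, for MaSC/basal against ML, where DESeq2 called it (adjusted p = 0.0461).

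*Hoxc13*, which controls the keratins of hair and nail, stood out by 1 library. It had 68 reads or 3.10 CPM in ML 3, at most 0.107 CPM in the other sorted libraries and 0.449 CPM (20 reads) in the Mammosphere, and no read in Comma Dβ. It was expressed in ML on average through ML 3 alone, and it did not pass the filter. In that library a list of 12 hair keratins, drawn up after the values were seen, summed to 88.8 CPM with 11 detected, against 0.670 to 12.95 CPM in the other sorted libraries. *Hoxc8* was also highest in ML 3 among the sorted libraries, at 1.05 CPM. The part that cells of skin or hair may have in these values was not tested.

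The antisense RNA *Hoxb3os*, which is not among the genes counted, covers 52.9% of the exonic bases of *Hoxb3* and 27.3% of those of *Hoxb2* in GENCODE M21. The library kit does not keep the strand, so reads of the antisense RNA within those exons and reads of the genes cannot be told apart. *Hoxb4* lies inside the span of *Hoxb3* but shares no exonic bases with it, nor does *Hoxb9* with any gene. In HoxA, antisense RNAs cover 35% of the exonic bases of *Hoxa11*, 25.4% of those of *Hoxa3*, 20.4% of those of *Hoxa7* and 16% of those of *Hoxa4*, and a gene on its own strand shares 15% of those of *Hoxa2*, so their values carry the same doubt. *Hoxd3* and *Hoxd4* share 62.3% and 52.3% of their exonic bases with other genes on their strand, each other included, and their values are uncertain for that reason.

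In mammospheres many more Hox genes were above 0.5 CPM than in sorted cells. Those with at least 1 read numbered 33 in the Mammosphere and 29, 31 and 28 in MaSC/basal 1, 2 and 3. The Mammosphere library expressed 18 of the 39 Hox genes (46.2%) above 0.5 CPM, where 54% of all genes were, and held 2365 Hox reads. A gene was counted as higher or lower than MaSC/basal when it lay outside the range of the 3 MaSC/basal libraries and differed from their mean by over 2-fold with a prior count of 2. By this rule 22 of the 39 Hox genes were higher, beside 19% of the 22385 genes with a read in any library, and 0 were lower, beside 17.4%. Of the 5 that passed the filter, 2 were higher, beside 19.6% of the 15422 genes kept, and 0 lower, beside 20%. *Hoxb6*, counted here as higher, passed the filter only through ML 3 and the cultures, so the filter had selected it on the Mammosphere value. With 1 library there is no replicate check and no test. The 22 comprised 9 of 11 HoxA genes, 5 of 10 HoxB, 7 of 9 HoxC and 1 of 9 HoxD, and 15 of them were also above 0.5 CPM. The Mammosphere was above all 9 sorted libraries for 24 Hox genes, beside 20.3% of the 22385 genes, and Comma Dβ for 21, beside 23.5%. Ratios that follow are of the Mammosphere to the pooled MaSC/basal libraries, with an exact 95% interval that covers counting error only.

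Of the HoxC genes, 3 were above 1 CPM in the Mammosphere. *Hoxc6*, a thoracic gene, was at 0.0509, 0.159 and 0.169 CPM in MaSC/basal, 0.141, 0.225 and 0.160 in LP, 0.141, 0.0266 and 0.319 in ML, 3.595 in Mammosphere and 0.340 in Comma Dβ, and the ratio was 29.2 (18.3 to 49.0). It had 160 reads in the Mammosphere. *Hoxc8*, which helps to place the mammary buds, was at 0.102, 0.339 and 0.264 CPM in MaSC/basal, 0.212, 0.356 and 0.160 in LP, 0.0565, 0.0930 and 1.05 in ML, 1.55 in Mammosphere and 0 in Comma Dβ, with a ratio of 6.80 (4.50 to 10.4). *Hoxc10*, a gene of the lumbar region, was at 0.0848, 0.239 and 0.226 CPM in MaSC/basal, 0.0353, 0.281 and 0.214 in LP, 0.170, 0.0266 and 0.0911 in ML, 1.84 in Mammosphere and 0 in Comma Dβ, with a ratio of 10.3 (6.68 to 16.3). For all 3 the Mammosphere exceeded every sorted library, and Comma Dβ stood at or near 0 for *Hoxc8* and *Hoxc10*.

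*Hoxc9*, which sets the identity of thoracic motor neurons, was at 0.0170, 0.0199 and 0.0188 CPM in MaSC/basal, 0, 0.0374 and 0.0534 in LP, 0.0565, 0.0266 and 0.137 in ML, 0.607 in Mammosphere and 0.510 in Comma Dβ, and the ratio of 32.8 (10.1 to 169) rests on 3 MaSC/basal reads. *Hoxc4* was at 0.237, 0.219 and 0.113 CPM in MaSC/basal, 0, 0.0374 and 0.0534 in LP, 0.0848, 0.0399 and 0.0911 in ML, 0.966 in Mammosphere and 3.50 in Comma Dβ, with a ratio of 5.06 (3.11 to 8.30). *Hoxc5* was at 0.119, 0.219 and 0.151 CPM in MaSC/basal, 0, 0.0748 and 0 in LP, 0.0283, 0 and 0.0455 in ML, 0.989 in Mammosphere and 1.87 in Comma Dβ, with a ratio of 6.17 (3.72 to 10.4). Both of these anterior HoxC genes were higher still in Comma Dβ, and their sorted libraries were highest in MaSC/basal. Toward the posterior end of HoxC, *Hoxc11* and *Hoxc12* had 1 and 0 reads in the Mammosphere, while *Hoxc13* had 20.

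In HoxA, *Hoxa10*, known for its part in the uterus, was at 0.0339, 0.0598 and 0.0188 CPM in MaSC/basal, 0.0705, 0.0561 and 0 in LP, 0.0565, 0 and 0 in ML, 1.33 in Mammosphere and 0.408 in Comma Dβ, and its ratio was 35.9 (15.5 to 102). *Hoxa9*, a gene of blood progenitors and leukaemia, was at 0.0509, 0.0399 and 0 CPM in MaSC/basal, 0.0353, 0.0561 and 0.107 in LP, 0.0283, 0 and 0.137 in ML, 0.652 in Mammosphere and 0.680 in Comma Dβ, with a ratio of 21.1 (8.09 to 70.0). *Hoxa3*, needed for the thymus and parathyroid, was at 0.0170, 0.0996 and 0.207 CPM in MaSC/basal, 0, 0.0374 and 0 in LP, 0, 0.0266 and 0.228 in ML, 0.831 in Mammosphere and 3.57 in Comma Dβ, with a ratio of 7.94 (4.36 to 15.03). In *Hoxa9* and *Hoxa10* no sorted library exceeded 0.137 CPM and the Mammosphere stood well apart. *Hoxa5*, a candidate of the screen that acts in the lung and the thoracic region, was at 0.119, 0.179 and 0.188 CPM in MaSC/basal, 0, 0.0561 and 0.0534 in LP, 0.0565, 0.0797 and 0.364 in ML, 0.584 in Mammosphere and 3.09 in Comma Dβ. Its Mammosphere value was above all 9 sorted libraries, of which ML 3 was the highest, and the ratio to MaSC/basal was 3.65 (2.03 to 6.53).

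The remaining HoxB genes followed. *Hoxb7* was at 0.0339, 0.120 and 0.113 CPM in MaSC/basal, 0.0705, 0.0936 and 0.107 in LP, 0.0848, 0.0399 and 0.273 in ML, 1.03 in Mammosphere and 5.17 in Comma Dβ, and the Mammosphere ratio was 12.0 (6.47 to 23.6). *Hoxb8*, the gene with the motif match, was at 0.0678, 0.0996 and 0.113 CPM in MaSC/basal, 0.0353, 0.0187 and 0.0534 in LP, 0.0283, 0.0531 and 0.319 in ML, 0.562 in Mammosphere and 8.46 in Comma Dβ, with a ratio of 6.08 (3.08 to 12.4). *Hoxb5*, a gene of the vagal neural crest, was at 0.0678, 0.0996 and 0.0753 CPM in MaSC/basal, 0.141, 0.168 and 0.160 in LP, 0.0283, 0.159 and 0.364 in ML, 0.449 in Mammosphere and 2.14 in Comma Dβ, with a ratio of 5.61 (2.66 to 12.3). In each of these 3 genes ML 3 was the highest sorted library and stayed below the Mammosphere. *Hoxb6* had a ratio of 15.04 (6.81 to 37.7), although its Mammosphere value of 0.742 CPM did not exceed the 0.774 CPM of ML 3. *Hoxb4* had a ratio of 4.49 (3.86 to 5.23) from 383 Mammosphere reads and was above every sorted library.

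Of the 4 genes expressed in MaSC/basal cells, *Hoxb4* alone met the rule. *Hoxb2* had a ratio of 1.44 (1.27 to 1.63) and *Hoxb3* of 0.849 (0.783 to 0.919), the latter inside the MaSC/basal range. *Hoxb9* was below its MaSC/basal range, at 24 reads and a ratio of 0.481 (0.300 to 0.738), and with the prior count it did not reach the 2-fold rule. *Hoxd8*, the other candidate of the screen, was at 0.170, 0.199 and 0.565 CPM in MaSC/basal, 0.0353, 0.0936 and 0 in LP, 0.0565, 0.133 and 0.273 in ML, 0.742 in Mammosphere and 0.0340 in Comma Dβ. Its ratio was 2.41 (1.502 to 3.81), the smallest among the genes higher by the rule, and MaSC/basal 3 at 0.565 CPM was nearest to the Mammosphere. *Hoxa11*, higher by the rule, had 3 Mammosphere reads against 0 and is given no fold, and its antisense partner *Hoxa11os* was at 0.0449 CPM there. Within batch 1, where MaSC/basal 1 and the Mammosphere can be set side by side, the ratio was 4.37 for *Hoxd8*, 4.92 for *Hoxa5*, 4.00 for *Hoxb4*, 70.7 for *Hoxc6* and 0.723 for *Hoxb9*, each in the direction of its pooled ratio. The ratio itself lay above the pooled interval for *Hoxd8*, *Hoxc6*, *Hoxa3* (49.0), *Hoxb7* (30.5), *Hoxc8* (15.2) and *Hoxc10* (21.7) and below it for *Hoxb2* (1.15) and *Hoxb3* (0.736).

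Per length, *Hoxb2* with 4.96 RPKM, *Hoxb3* with 4.60, *Hoxb4* with 3.35 and *Hoxc6* with 2.26 led in the Mammosphere, and *Hoxb2*, *Hoxb3* and *Hoxb4* together held 56.0% of the Hox RPKM. Genes 4 to 8 held 44.5% there and genes 9 to 13 held 11.1%. Markers of other cells moved as well. The 7 fibroblast markers, none of them at 0 in any library, summed to 2553 CPM in the Mammosphere against 598 to 887 CPM in the MaSC/basal libraries, from 287 to 1384 CPM in those of LP and from 411 to 933 CPM in those of ML. The 4 skeletal muscle markers summed to 50.9 CPM against 0.449 to 5.24 CPM in the sorted libraries. *Myog* was at 12.4, *Myod1* at 3.51 and *Acta1* at 34.6 CPM. *Ckm*, at 0.427 CPM, lay inside its range of 0.0187 to 0.877 CPM in the sorted libraries. The sum for fibroblasts was not shared by each marker, since *Dcn* was at 98.3 CPM in the Mammosphere and 162 to 204 CPM in MaSC/basal. Beside the MaSC/basal libraries the Mammosphere also had more of the LP markers (334 against 81.7 to 87.6 CPM), the luminal markers (2824 against 1317 to 1605 CPM) and the immune markers (35.0 against 9.67 to 11.6 CPM). The 5 basal markers summed to 4523 CPM. The part of such cells in the Hox values was not tested.

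**Figure D4:**
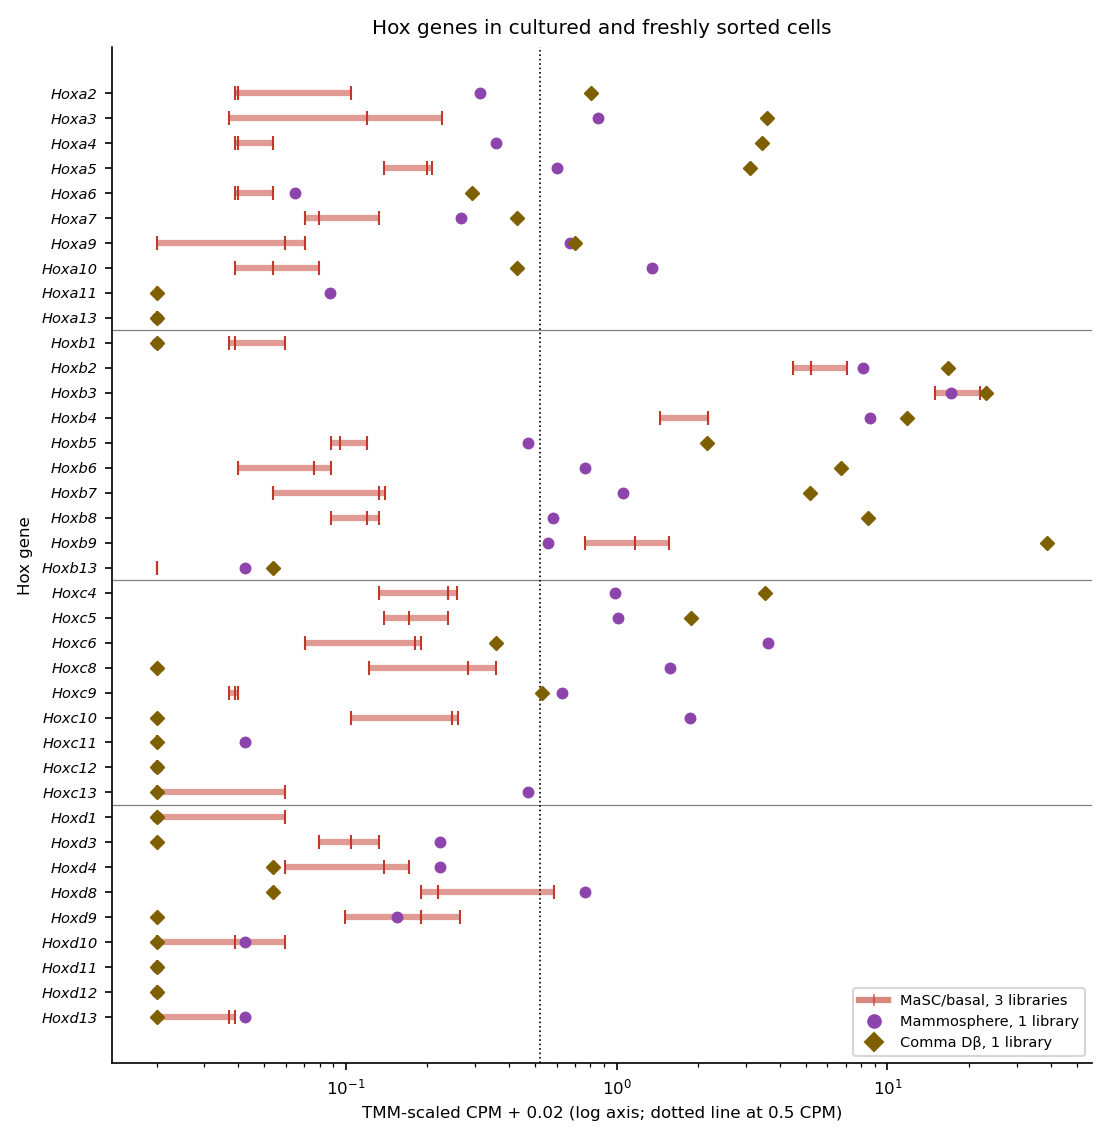
TMM-scaled CPM + 0.02 (log axis) of each Hox gene reported here, with the 3 MaSC/basal libraries as ticks on a bar from lowest to highest, the Mammosphere as a circle and Comma Dβ as a diamond. The dotted line is at 0.5 CPM. The Mammosphere lies to the right of the MaSC/basal bar for most HoxA and HoxC genes, and Comma Dβ lies far to the right in HoxA and HoxB, with Hoxb9 at 38.9 CPM, and at the left edge in HoxD.

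Comma Dβ cells had a different selection of Hox genes. They expressed 17 of 39 (43.6%, beside 50.3% of all genes) and held 4071 Hox reads with a summed level of 61.3 RPKM, against 23.1 RPKM in the Mammosphere. By the same rule 20 of 39 were higher than MaSC/basal, beside 16% of genes, and 5 were lower, beside 22.4%. Of the 5 that passed the filter, 4 were higher, beside 16.8% of the genes kept, and 0 lower, beside 24.8%. *Hoxb6* is again among the higher ones, and it passed the filter only through ML 3 and the cultures, Comma Dβ included. The 20 comprised 9 of 11 HoxA, 7 of 10 HoxB and 4 of 9 HoxC genes, and no HoxD gene. The 5 lower ones were *Hoxc8*, *Hoxc10*, *Hoxd3*, *Hoxd8* and *Hoxd9*. Of these *Hoxd3* and *Hoxd9* were near the floor. *Hoxd3* was at 0.0848, 0.0598 and 0.113 CPM in MaSC/basal. Its ratio to MaSC/basal had an upper limit of 1.66, so a lower level in Comma Dβ was not established. For *Hoxd9* the upper limit was 0.807. There were 15 genes without a read, 7 of them among the 9 HoxD genes and 5 among the 9 HoxC genes, where a count of 0 allows up to 3 reads, or 0.102 CPM. *Hoxd4* and *Hoxd8* had 1 read each.

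*Hoxb9* was the highest, with 1146 reads, 38.9 CPM and 14.4 RPKM, and a ratio to MaSC/basal of 34.7 (29.7 to 40.8). Of its neighbours in HoxB, *Hoxb6* had 6.73 CPM and a ratio of 136 (67.9 to 320.5), *Hoxb8* had 8.46 CPM and a ratio of 91.5 (54.4 to 166) and *Hoxb7* had 5.17 CPM and a ratio of 59.9 (34.6 to 112). Per length these 3 reached 5.09, 3.199 and 4.07 RPKM. *Hoxb4* had a ratio of 6.15 (5.26 to 7.19), *Hoxb2* of 2.98 (2.67 to 3.33) and *Hoxb3* of 1.144 (1.05 to 1.24). The last of these was the HoxB gene nearest to its MaSC/basal level, and *Hoxb2*, *Hoxb3* and *Hoxb4* together held no more than 34.3% of the Hox RPKM.

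In HoxA, *Hoxa4* was at 0.0339, 0.0199 and 0.0188 CPM in MaSC/basal, 0, 0.0187 and 0.160 in LP, 0, 0 and 0.0455 in ML, 0.337 in Mammosphere and 3.43 in Comma Dβ, with a Comma Dβ ratio of 139 (52.7 to 521). *Hoxa2*, a gene of the second pharyngeal arch, was at 0.0848, 0.0199 and 0.0188 CPM in MaSC/basal, 0, 0.0374 and 0.0534 in LP, 0, 0.0266 and 0 in ML, 0.292 in Mammosphere and 0.782 in Comma Dβ, with a ratio of 18.1 (7.53 to 50.0). Comma Dβ was above every sorted library and above the Mammosphere for both. *Hoxa5* was also high there, with 3.09 CPM and a ratio of 19.3 (12.4 to 31.1), whereas *Hoxd8* had a ratio of 0.110 (0.00274 to 0.643). *Hoxa3* had 3.57 CPM. *Hoxa10* was lower in Comma Dβ than in the Mammosphere, at 0.408 against 1.33 CPM.

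The HoxC genes divided within the cluster. *Hoxc4* had 3.50 CPM and *Hoxc5* 1.87 CPM in Comma Dβ, and *Hoxc6* and *Hoxc9* had 0.340 and 0.510 CPM. *Hoxc8* and *Hoxc10* had no read, although 69 and 82 reads were found in the Mammosphere. The upper limit of the ratio to MaSC/basal was 0.578 for *Hoxc8* and 0.748 for *Hoxc10*. The fibroblast markers summed to 4004 CPM in Comma Dβ, although *Dcn* and *Lum* were at 91.3 and 0.680 CPM, below the 162 to 204 CPM and 9.43 to 20.5 CPM of MaSC/basal. The luminal markers summed to 205 CPM there. Strain, stage, culture and batch differ together between this line and the MaSC/basal cells and cannot be told apart.

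Hox proteins bind DNA with partners of the Pbx, Meis and Pknox families, and these were expressed widely. Of 9 such genes all were tested, and against the luminal mean 4 were higher in MaSC/basal and 4 lower. Over all genes tested, 31.2% were higher and 30.5% lower in this comparison. The median log2 difference was 0.30 beside -0.01 over all genes. *Pknox2* was at 30.5, 38.1 and 31.7 CPM in MaSC/basal, 2.57, 1.67 and 1.60 in LP, 1.61, 1.51 and 1.55 in ML, 5.44 in Mammosphere and 0.238 in Comma Dβ. *Pbx3* was at 21.0, 24.2 and 19.7 CPM in MaSC/basal, 2.86, 2.79 and 2.46 in LP, 1.92, 1.85 and 1.503 in ML, 9.15 in Mammosphere and 19.6 in Comma Dβ. The MaSC/basal libraries were far above all luminal libraries in both, with log2 differences of 4.26 (SE 0.17, edgeR adjusted p = 5.15e-08) and 3.30 (SE 0.14, edgeR adjusted p = 6.46e-08), and these are the partners with the largest difference. *Pbx4*, which was low throughout, was at 0.119, 0.120 and 0.113 CPM in MaSC/basal, 0.0705, 0.225 and 0.160 in LP, 0.452, 0.505 and 0.547 in ML, 0.112 in Mammosphere and 0.816 in Comma Dβ. It was lower in MaSC/basal by a log2 difference of -1.26 (SE 0.37, edgeR adjusted p = 0.014), and the call was lost without LP 2 (0.0722) and with DESeq2 (0.0632). It passed the filter only through ML 2, ML 3 and Comma Dβ, so among sorted cells it entered the test through the population where it was high. It was not tested without ML 2 or ML 3, with sorted libraries only or with a stricter filter. With no filter the difference from the luminal mean was -1.26 (edgeR adjusted p = 0.0303). MaSC/basal differed by -2.06 from ML (SE 0.39, edgeR adjusted p = 0.00121) and by -0.45 from LP (edgeR adjusted p = 0.419). *Meis2*, not called (edgeR adjusted p = 0.489), was at 0.271 to 0.772 CPM in the sorted libraries, at 3.91 CPM in the Mammosphere and at 13.1 CPM in Comma Dβ.

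**Figure D5:**
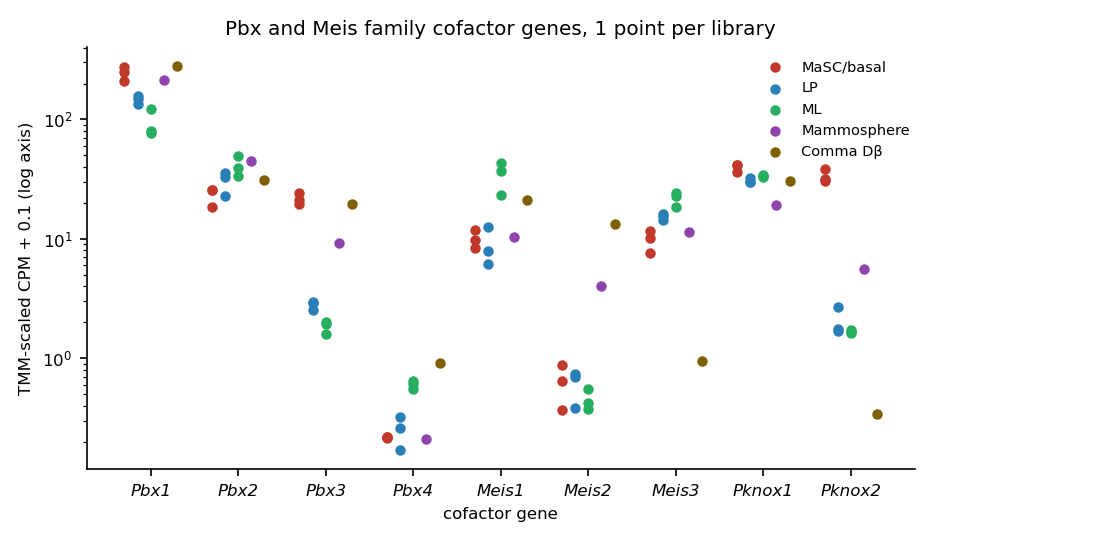
TMM-scaled CPM + 0.1 (log axis) of the 9 Pbx, Meis and Pknox genes, 1 point per library, coloured by sample type. Pbx3 and Pknox2 separate MaSC/basal, at 19.7 to 38.1 CPM, from LP and ML, at 1.503 to 2.86 CPM, and Meis2 is highest in Comma Dβ and the Mammosphere.

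Chromatin regulators that act on Hox clusters, the MLL and Menin group that keeps them active and the PRC2 complex that keeps them silent, were all tested. Of 11 genes 2 were higher and 3 lower in MaSC/basal than in the luminal mean, with a median log2 difference of -0.03. The shares over all genes tested were 31.2% higher and 30.5% lower. Without MaSC/basal 1 the number called was 3. *Kmt2b*, an MLL methyltransferase, was lower at 84.9, 82.7 and 109 CPM against 153 to 209.8 CPM in luminal libraries (log2 difference -0.87, SE 0.13, edgeR adjusted p = 0.000199). *Ezh2*, a PRC2 methyltransferase, was higher at 72.5, 58.6 and 70.5 CPM against 34.4 to 44.3 CPM (0.74, SE 0.11, edgeR adjusted p = 0.00016). *Ezh1*, its paralog, was lower by a log2 difference of -0.68 (SE 0.23, edgeR adjusted p = 0.0257), with 30.8, 44.6 and 30.4 CPM against 32.2 to 75.2 CPM, so the groups overlapped. That call was lost with the replicate block (-0.45, adjusted p = 0.118) and without MaSC/basal 1 (0.109), MaSC/basal 3 (0.0964) or LP 3 (0.0515).

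Retinoic acid induces anterior Hox genes in the embryo. Of 10 genes of its synthesis, binding, response and breakdown 8 were tested. In MaSC/basal 3 were higher and 3 lower than in the luminal mean, beside 31.2% and 30.5% of all genes tested. Their median log2 difference was 0.36. *Aldh1a3*, a synthetic enzyme, was at 5.46, 7.73 and 8.85 CPM in MaSC/basal against 81.2 to 236 CPM in luminal libraries (log2 difference -4.42, SE 0.39, edgeR adjusted p = 4.65e-06). *Aldh1a1*, another, was higher in MaSC/basal at 30.2, 8.25 and 7.50 CPM against 0.353 to 1.95 CPM (3.87, SE 0.52, edgeR adjusted p = 0.000104). *Cyp26b1*, which breaks retinoic acid down, was at 4.10, 7.39 and 5.14 CPM against 1.16 to 2.72 CPM (1.43, SE 0.24, edgeR adjusted p = 0.000499) and reached 85.1 CPM in the Mammosphere. *Rarb*, a receptor and target of retinoic acid, reached 29.0 CPM there against 0.592 to 2.85 CPM in the sorted libraries. Of the rest of the list, *Rara*, *Crabp1*, *Crabp2* and *Aldh1a3* were also above MaSC/basal in the Mammosphere. *Aldh1a1* was below it, at 0.607 CPM, and *Rarg*, *Cyp26a1* and *Aldh1a2* lay inside the MaSC/basal range. The part of these genes in the Hox values was not tested.

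Of the 16 protein-coding genes that are the nearest 2 on each side of the clusters, 11 were tested and the other 5, *Evx1*, *Evx2*, *Calcoco2*, *Ttll6* and *Skap1*, did not pass the filter. Of the 11, 2 were higher and 5 lower in MaSC/basal than in the luminal mean, with a median log2 difference of -0.24. Among all genes tested 31.2% were higher and 30.5% lower. *Skap2* and *Snx10*, beside HoxA, were lower by -1.55 (SE 0.12, edgeR adjusted p = 2.32e-06) and -0.999 (SE 0.28, edgeR adjusted p = 0.00952), with *Skap2* at 13.4 to 15.6 CPM in MaSC/basal and 31.4 to 56.7 CPM in luminal libraries. *Calcoco1*, beside HoxC, was higher by 0.86 (SE 0.15, edgeR adjusted p = 0.000508). Of the noncoding RNAs of the clusters 4 were in the table, *Hotair*, *Hoxa11os*, *Hoxaas3* and *Hoxd3os1*, and none passed the filter, with a highest value of 0.102 CPM.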

How the data were processed

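RNA from 9 libraries of sorted mouse mammary cells and 2 of cultured cells was analysed. Per the labels and the study's methods, the authors made TruSeq libraries, aligned single-end reads to mm10 (GRCm38) with Rsubread and assigned them to genes with featureCounts, and the deposited values are raw read counts per Entrez gene with a gene length in bases. The strand setting and the annotation release are not given in the sources used here. The submitters' processing notes also name CASAVA 1.8.0, edgeR 3.6.2 and limma 3.20.5.

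Symbols came from RefSeq by Entrez ID, and 1904 of 27179 genes had none. The members and gene lists were chosen with earlier results of these data known. In edgeR 4.0.16 (R 4.3.3), genes over 0.5 CPM in at least 3 libraries were kept (15422), libraries were scaled by TMM, and the quasi-likelihood fit had 1 mean per sample type over all 11 libraries, so that the cultures, with 1 library each, were in the fit but in no test. Adjusted p-values are Benjamini-Hochberg over all genes tested. A standard error is the log2 difference divided by the square root of its F statistic. Library totals were 51368625 to 57160817 reads in MaSC/basal, 19958838 to 60517657 in LP, 21311068 to 75795034 in ML, 38388464 in the Mammosphere and 24285202 in Comma Dβ. Intervals are exact at 95% and cover counting error only, since reads carry no molecular identifiers.

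LP and ML libraries of the same number share a batch in the labels, and deviations of their genes from the group means correlated at 0.32, 0.31 and 0.53 within batches, so a fit with batch as a replicate block was run. Hox genes were named with every library's value when they passed the filter, when a culture was over 0.5 CPM or when they were screen candidates. Other lists were 9 Pbx, Meis and Pknox genes, 11 MLL, Menin and PRC2 genes, 10 retinoic acid genes, 16 flanking genes and 4 noncoding RNAs, with the 3 called genes of largest difference against the luminal mean named for each, and *Meis2* and *Rarb* added after their values were seen, as were *Hoxc13*, the hair keratins, *Krt1* and *Krt10*. Alternatives were DESeq2 1.42.0 and its size factors, limma 3.58.1 voom, no TMM scaling, other filters, sorted libraries only, other cutoffs and prior counts, the block, and each replicate left out. The fits were tested on simulated data. The values of 1 Hox gene, which the counts include, are not reported here.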

Additional observations from a re-analysis of the deposited data

How the results depend on the processing

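Of 613 alternative values of single genes, 560 kept their direction and their side of the threshold, 41 kept the direction but were no longer called, 4 became called and 8 changed sign. All 8 changes of sign were in differences that were not called. *Hoxb2* in MaSC/basal against luminal, -0.06 on the log2 scale, became 0.00052 without TMM scaling, 0.071 with limma voom, 0.31 with library batch as a replicate block, and ranged from -0.26 to 0.094 with 1 replicate left out, being above 0 without MaSC/basal 2, MaSC/basal 3, LP 3 or ML 3, and *Hoxb6* in LP against ML, -0.91, became 0.073 with limma voom. The cause was not tested.

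With no filter on low counts 36 Hox genes were tested. Of these, edgeR called 4 in MaSC/basal against LP, 5 against ML and 6 against luminal. *Hoxc4*, *Hoxc5*, *Hoxc13*, *Hoxd8* and *Hoxd9* were among them. The share of all genes called with this setting was not counted, so these counts are not a result about Hox genes. With the main filter, limma voom called 1 Hox gene in MaSC/basal against ML. Leaving out 1 replicate at a time gave 2 to 3 Hox genes in MaSC/basal against LP, 0 to 3 against ML, 1 to 3 in LP against ML, 1 to 2 against luminal and 3 to 5 of the MLL, Menin and PRC2 genes. With the paired analysis by replicate block the counts were 3, 3, 3 and 2 Hox genes in MaSC/basal against LP, MaSC/basal against ML, LP against ML and MaSC/basal against luminal, and the block made the calls of *Hoxb2* against LP and *Hoxb3* against ML and ended those of *Hoxb4* against ML, *Ezh1* and *Meis1* (-0.53, adjusted p = 0.0654). A cutoff of 0.25 CPM gave 7 expressed Hox genes in ML and a cutoff of 1 CPM gave 8 in the Mammosphere. A prior count of 0.5 gave 28 Hox genes outside the MaSC/basal range in each culture, 26 higher (beside 22.8% of genes) and 2 lower (19.3%) in the Mammosphere and 21 higher (18.3%) and 7 lower (24.7%) in Comma Dβ.

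Without TMM scaling the median of all genes shifted to 0.14 in MaSC/basal against LP and to -0.19 in LP against ML, and the 15 mean levels of the tested Hox genes in sorted populations moved by less than their SD. Depth limits the 34 Hox genes that were not tested. In LP 3, the shallowest library, 0.5 CPM is 9.37 reads.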
